A study of Mus musculus with 44 samples.

Results

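The accessible sites around 7 genes that mark blood vessels and their companion cells were followed through 44 ATAC-seq libraries of cultured mouse cortical neurons. ATAC-seq cuts open chromatin with a transposase, so a peak marks accessible DNA, such as a promoter or an enhancer. The genes were Kdr, Flt1, Pecam1, Cldn5, Pdgfrb, Col1a1 and Foxc1, of 21883 protein-coding genes annotated on the mouse autosomes, X and Y. They were chosen by earlier results of these libraries, among them lower peak ranks under the drug FHT1015. Every peak summit within 50 kb of one of these genes was taken, and summits of different libraries that lay within 250 bp of a shared centre were joined into 1 site. This gave 319 sites of 495811 in all, of which 150 had the named gene as their nearest protein-coding gene. Pdgfrb had 92 sites, Col1a1 62, Pecam1 59, Flt1 39, Foxc1 27, Cldn5 24 and Kdr 16. The number with the named gene as nearest was 25, 19, 33, 31, 19, 7 and 16, in the same order. Being close to a gene does not show that a site acts on it.

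The study asked how the BAF chromatin remodelling complex, which moves nucleosomes with energy from ATP, bears on chromatin in neurons at rest and after depolarization. All cultures came from mouse cortex at embryonic day 16.5, with the meninges taken off at dissection. Before every harvest they were silenced overnight with 1 µM tetrodotoxin, a sodium channel blocker, and 100 µM D-AP5, an NMDA receptor blocker, and then kept unstimulated or depolarized with 50 mM KCl. There were 22 groups of 2 libraries each. The Smarcc2 experiment, at 18 days in vitro (DIV18), compared a non-targeting guide RNA (with the vector) with a Smarcc2 knockout. Smarcc2 encodes the BAF subunit BAF170. The knockout cultures received the empty vector, wild-type Smarcc2, or Smarcc2 with 1 serine replaced by alanine (S586A) or by glutamate (S586E). Each of these 5 genotypes was unstimulated or in KCl for 30 min, which gives 20 libraries. The drug experiment, at DIV7, used wild-type neurons given 100 nM FHT1015, an inhibitor of the BAF ATPases, or 0.1% DMSO, for 10 or 30 min, with or without KCl over the same period, which gives 16 libraries. The Arid2 experiment, at DIV7, compared the non-targeting guide with an Arid2 knockout, unstimulated or in KCl for 30 min, which gives 8 libraries; Arid2 belongs to the related PBAF complex. Peak lists do not show whether the Smarcc2 or Arid2 protein was lost. Guides were delivered to whole cultures, so each library pools many cells. The labels count each embryo's cortex as its own biological replicate without tying a library to an embryo, so p-values measure the spread between these libraries.

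Blood vessels of the brain have a tube of endothelial cells with pericytes and smooth muscle cells around it, and fibroblasts lie in the meninges and along larger vessels. Endothelial cells sense the growth factor VEGF through the receptor encoded by Kdr, while Flt1 encodes a related receptor that binds VEGF tightly and can act as a trap for it. Pecam1 encodes an adhesion molecule of endothelial contacts, and Cldn5 the main tight junction protein of the blood-brain barrier. Pdgfrb encodes the receptor through which pericytes are recruited, Col1a1 the main chain of type I collagen, and Foxc1 a forkhead factor of mural and meningeal cells.

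The promoters of Kdr, Flt1 and Cldn5 are shown because the sites within 1 kb of these starts rose with KCl or stood apart between the experiments. The windows of the Kdr and Cldn5 start sites themselves lie inside the genes and do not reach the printed bases. Each sequence holds the 250 bases before the annotated start, 5′ to 3′ on the gene's strand, from RefSeq (GRCm38.p6, the sequence of mm10). Capitals mark every match to GGAA, the core of ETS factor sites, GGGCGG, the core of SP1 sites, and TATAAA, the TATA box; a match on the opposite strand appears as TTCC or CCGCCC.
Kdr (chr5:75978456-75978705, minus strand): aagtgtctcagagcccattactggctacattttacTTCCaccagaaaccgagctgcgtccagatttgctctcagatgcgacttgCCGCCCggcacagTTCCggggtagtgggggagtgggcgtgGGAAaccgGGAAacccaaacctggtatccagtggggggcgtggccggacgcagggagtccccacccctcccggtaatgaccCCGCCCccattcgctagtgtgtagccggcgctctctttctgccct
Flt1 (chr5:147726012-147726261, minus strand): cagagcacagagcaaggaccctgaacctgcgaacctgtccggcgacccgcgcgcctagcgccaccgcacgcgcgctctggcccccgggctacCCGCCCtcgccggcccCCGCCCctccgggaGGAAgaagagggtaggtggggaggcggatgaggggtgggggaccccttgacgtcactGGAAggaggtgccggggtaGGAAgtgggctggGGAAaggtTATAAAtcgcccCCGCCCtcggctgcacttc
Cldn5 (chr16:18776597-18776846, plus strand): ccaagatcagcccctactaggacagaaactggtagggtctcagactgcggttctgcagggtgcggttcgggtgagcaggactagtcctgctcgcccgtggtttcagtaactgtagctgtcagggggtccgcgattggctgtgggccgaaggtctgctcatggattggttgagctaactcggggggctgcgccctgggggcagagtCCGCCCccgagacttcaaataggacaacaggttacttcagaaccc
The Kdr promoter held 4 matches to GGAA and 2 to GGGCGG. The Flt1 promoter held 4 matches to GGAA, 3 to GGGCGG and 1 TATAAA that begins 31 bases before the start. The Cldn5 promoter held 1 GGGCGG, 45 bases before the start, and no GGAA. The promoter of Foxc1 (chr13:31806396-31806645, plus strand), not printed, held 1 GGAA and 1 GGGCGG. A longer ETS site, CCGGAAG, which overlaps the shorter core, was not found in these 4 windows on either strand. Nor was the core of forkhead sites, TAAACA. The AP-1 site, which reads TGANTCA, was not found either. Of 27025 promoters of the same length, 93.4% held the ETS core, 32.9% the SP1 core, 13.0% the TATA box, 12% the forkhead core, 7.1% the longer ETS site and 6.9% the AP-1 site. All 4 were rich in G and C, at 61.6% for Kdr, 70.4% for Flt1, 59.6% for Cldn5 and 70.8% for Foxc1, against a median of 52.0%.

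Each site was followed by its rank. The authors' peak caller gave every summit a −log10 p, and summits were ranked by it within each library from the strongest down. The score of a site is log2(178672/rank), where 178672 is the number of autosomal summits in the shortest list. A score of 1 means rank 89336, 2 means rank 44668, 3 means rank 22334 and 4 means rank 11167. A score of 0 means that the site held no summit among the strongest 178672. A difference in score is therefore a ratio of ranks on the log2 scale, not of accessibility.

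Few of the sites next to these genes held a ranked summit in every library. The share among all 495811 sites was not computed. A site without a ranked summit need not be closed. In the unstimulated S586A replicate 1, the Kdr locus held 17 summits, of which 2 were among the strongest 178672. Of the 150 sites nearest to a named gene, 8 held a ranked summit in all 44 libraries: 3 at Foxc1, 2 at Col1a1 and 1 each at Flt1, Pecam1 and Pdgfrb. No site of Kdr or Cldn5 did. The site of Cldn5 with the highest mean away from its start (chr16:18732947-18733447, -43.6 kb from it) held one in 3 libraries, all of S586E. That of Kdr (chr5:75976656-75977156, inside the gene, 1.55 kb from the start) scored 0.20 to 1.19 in the drug experiment and at most 0.06 at DIV18. A further 26 sites held a summit in a single library. The strongest of the 150 by its mean over the 44 libraries was the start site of Col1a1 (chr11:94936964-94937464, inside the gene, 0.99 kb from its lower end), with a mean score of 2.78. It was followed by a site inside Pecam1 (chr11:106674557-106675057, 20.6 kb from the lower end), with a mean score of 2.53, and by a site upstream of Foxc1 (chr13:31801121-31801621, -5.28 kb from the start, that is before it), with a mean score of 2.45. Lower and upper end stand for the annotated gene end with the smaller and the larger coordinate, used where the strand was not given. At the 50 kb limit, the last site inside it lay 49916 bp from Pdgfrb (chr18:61134733-61135233, mean score 0.15) and the first outside lay 50092 bp from Pdgfrb (chr18:60994785-60995285, mean score 0.0694). Near Col1a1 the last inside lay at 49836 bp (chr11:95002628-95003128, mean score 0.447), and near Cldn5 the first outside lay at 50641 bp (chr16:18828653-18829153, mean score 0.31).

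The start sites of Flt1, Cldn5, Pdgfrb and Foxc1 stood higher in every wild-type DIV7 library of the drug experiment than in any DIV18 library. The start site of Kdr (chr5:75977935-75978435, inside the gene, 0.27 kb from the start) ranged from 0 to 1.25 in the 20 DIV18 libraries and from 1.02 to 3.01 in the 16 of the drug experiment. The start site of Flt1 (chr5:147725665-147726165, inside the gene, 0.10 kb from the start) scored 0 to 0.47 at DIV18 and 0.91 to 1.75 in the drug experiment. The ranges of Flt1 did not overlap, and those of Kdr did. The start site of Cldn5 (chr16:18777436-18777936, inside the gene, 0.84 kb from the start) scored 0 to 0.11 at DIV18 and 0.41 to 1.57 in the drug experiment. Cldn5 is only 1.416 kb long, so this site lies nearer to the far end of the gene than to its start. The start site of Pdgfrb (chr18:61044864-61045364, at the lower end) scored 0 to 0.41 and 0.96 to 1.43, and that of Foxc1 (chr13:31806278-31806778, -0.12 kb from the start) scored 0.07 to 2.04 and 2.35 to 3.46. Neither pair of ranges overlapped. In the 8 DIV7 libraries of the Arid2 experiment the start sites of these 4 genes did overlap their DIV18 ranges. There Flt1 scored 0 to 0.81, Cldn5 0 to 1.26 and Foxc1 0.65 to 1.62, and Pdgfrb held a ranked summit in 3 of 8. Age, guides and vectors, and the depth of the libraries all differed between the drug and the DIV18 experiment, so their parts cannot be told apart. The Col1a1 start site, at 1.61 to 3.18 at DIV18 and 2.71 to 3.65 in the drug experiment, overlapped. Pecam1 had no site within 1 kb of either end. The share of all start sites with ranges apart between these experiments was not computed. Summed over a list of progenitor marker genes, start scores were 6.74 to 11.8 at DIV18 and 16.5 to 19.6 in the drug experiment, also apart. Over a list of neuronal marker genes they overlapped, at 18.5 to 28.0 and 23.9 to 27.5. The separation is therefore not particular to vascular genes.

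**Figure D1:**
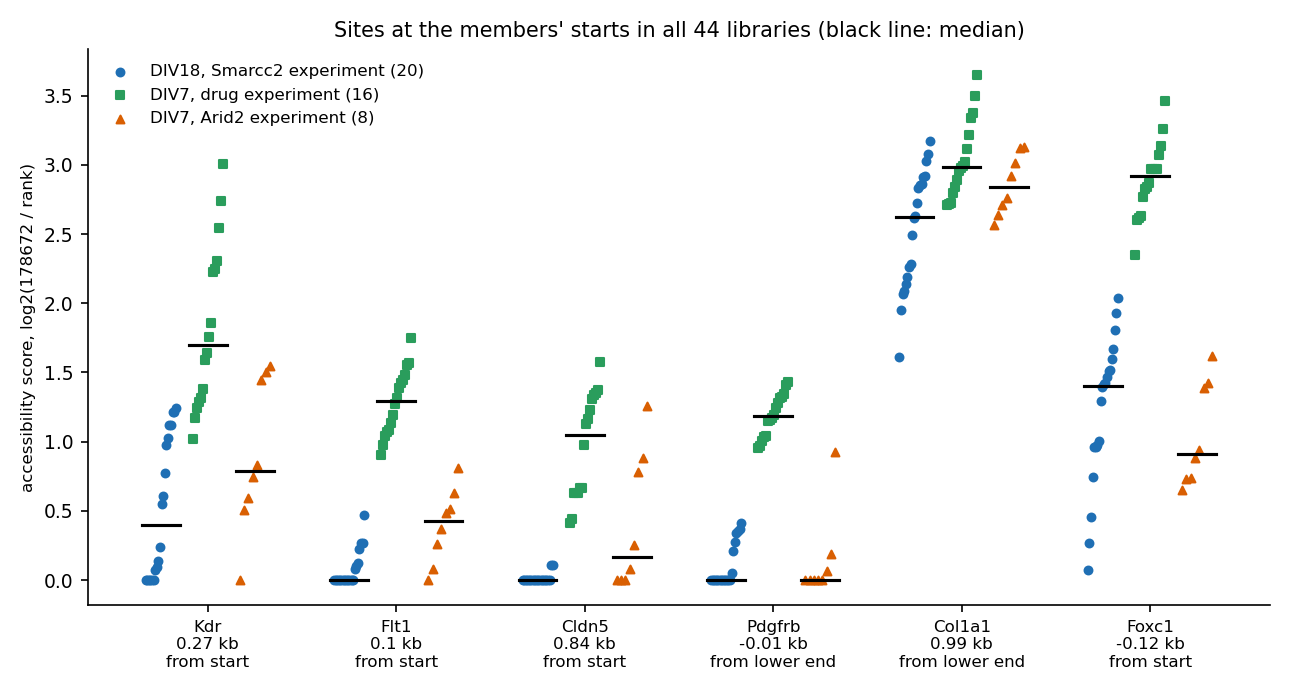
Scores of the start sites of 6 vascular genes, plotted on the vertical axis as log2(178672/rank), for each library of the 3 experiments (20 at DIV18, 16 of the drug experiment and 8 of the Arid2 experiment). Each point is 1 library and the black line is the median; the Flt1, Cldn5, Pdgfrb and Foxc1 points of the drug experiment lie above all their DIV18 points.

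The labels call the cells primary neurons, and marker genes of other cell types were read at their own start sites. All 10 neuronal markers had a site, with a summed score of 23.9 to 27.5 in the drug experiment, and 11 of 16 endothelial markers had one, with a summed score of 14.4 to 20.2 there and 6.54 to 11.7 at DIV18. Tie1, Tek, Sox17, Emcn and Pecam1 had none, and Cdh5 held one in 3 of 44 libraries. The lists include the genes of this report: Kdr, Flt1, Pecam1 and Cldn5 are among the endothelial markers. Pdgfrb is among the mural markers, and Col1a1 and Foxc1 are among the fibroblast and meningeal markers. Of 12 mural markers 10 had a site, and of 12 fibroblast and meningeal markers 8 had one, but Anpep, Higd1b, Col1a2, Col3a1, Lum and Postn had none, and Dcn held one in 3 libraries. In a list of 12 genes of other organs, 3 had a site, so an open start alone does not show that a cell type was present. In such bulk libraries, fewer cells of a type and lower accessibility per cell cannot be told apart. The lists held 182229 to 397885 summits, and the level to which the caller compared its peaks was 0.942 to 8.39 reads per base.

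The largest knockout differences around these genes were at Flt1, where 3 sites inside the gene were lower without Smarcc2 and higher again with wild-type Smarcc2. Only at the first of them did the add-back call hold in each repeat without 1 library and each other setting. The first lies 18.3 kb from the Flt1 start (chr5:147707429-147707929). In the unstimulated libraries it ranked 10222 and 12675 with the non-targeting guide, 47599 and 45273 in the knockout with vector, and 11247 and 15663 with wild-type Smarcc2 added back. As scores these are 4.13 and 3.82 with the non-targeting guide, 1.91 and 1.98 in the knockout, and 3.99 and 3.51 with the add-back. After KCl the scores were 3.18 and 3.02 with the non-targeting guide, 1.59 and 1.52 in the knockout, and 2.76 and 2.48 with the add-back. Every knockout library lay below every library of the other 2 genotypes. Over both states the mean score was 3.54 ± 0.52 (SD, n = 4) with the non-targeting guide, 1.75 ± 0.23 (SD, n = 4) in the knockout and 3.19 ± 0.69 (SD, n = 4) with wild-type Smarcc2. The score fell by 1.79 ± 0.20 (SE) in the knockout (limma, adjusted p = 0.000414 over 277507 sites) and rose by 1.44 ± 0.20 (SE) with the add-back (limma, adjusted p = 0.00163). Both comparisons use the same 4 knockout libraries.

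The other 2 Flt1 sites neighbour each other, 54.1 kb (chr5:147671701-147672201) and 53.7 kb (chr5:147672052-147672552) from the start, so that their windows overlap. At the first the scores were 3.66, 2.64, 2.42 and 2.53 with the non-targeting guide (unstimulated, then KCl), 2.53, 1.88, 1.54 and 1.02 in the knockout, and 2.90, 2.82, 2.61 and 2.62 with the add-back. The add-back libraries all lay above the knockout, while the highest knockout library overlapped the non-targeting range. The score fell by 1.07 ± 0.22 (SE) in the knockout (limma, adjusted p = 0.0126) and rose by 1.00 ± 0.22 (SE) with the add-back (limma, adjusted p = 0.022). At the second the scores were 2.95, 2.67, 1.46 and 1.31, then 1.69, 1.10, 0.46 and 0.71 in the knockout, and 2.50, 2.16, 1.72 and 1.08 with the add-back. It fell by 1.11 ± 0.21 (SE; limma, adjusted p = 0.00727) and rose by 0.88 ± 0.21 (SE; limma, adjusted p = 0.0292). Over other settings of the processing the add-back rise was 0.77 to 1.16 at 54.1 kb (limma, adjusted p up to 0.077). At 53.7 kb it was 0.55 to 1.00 (limma, adjusted p up to 0.108), so neither rise kept its call throughout. With the length of each peak list as a covariate the fall at the second site missed the threshold (limma, adjusted p = 0.0734), while the change of the 18.3 kb site was -1.68 (limma, adjusted p = 0.0104); knockout lists held 244804 to 287490 summits and non-targeting lists 295592 to 347429. Without single libraries both falls stayed called in 8 of 8 repeats, but the add-back rise was called in 3 of 8 at 54.1 kb (0.83 to 1.16, limma, adjusted p up to 0.0712; lost without knockout KCl or unstimulated replicate 2, either add-back KCl library or add-back unstimulated replicate 1) and in 4 of 8 at 53.7 kb (0.71 to 1.04, limma, adjusted p up to 0.11; lost without knockout KCl replicate 1, knockout unstimulated replicate 2 or replicate 1 of either add-back state).

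**Figure D2:**
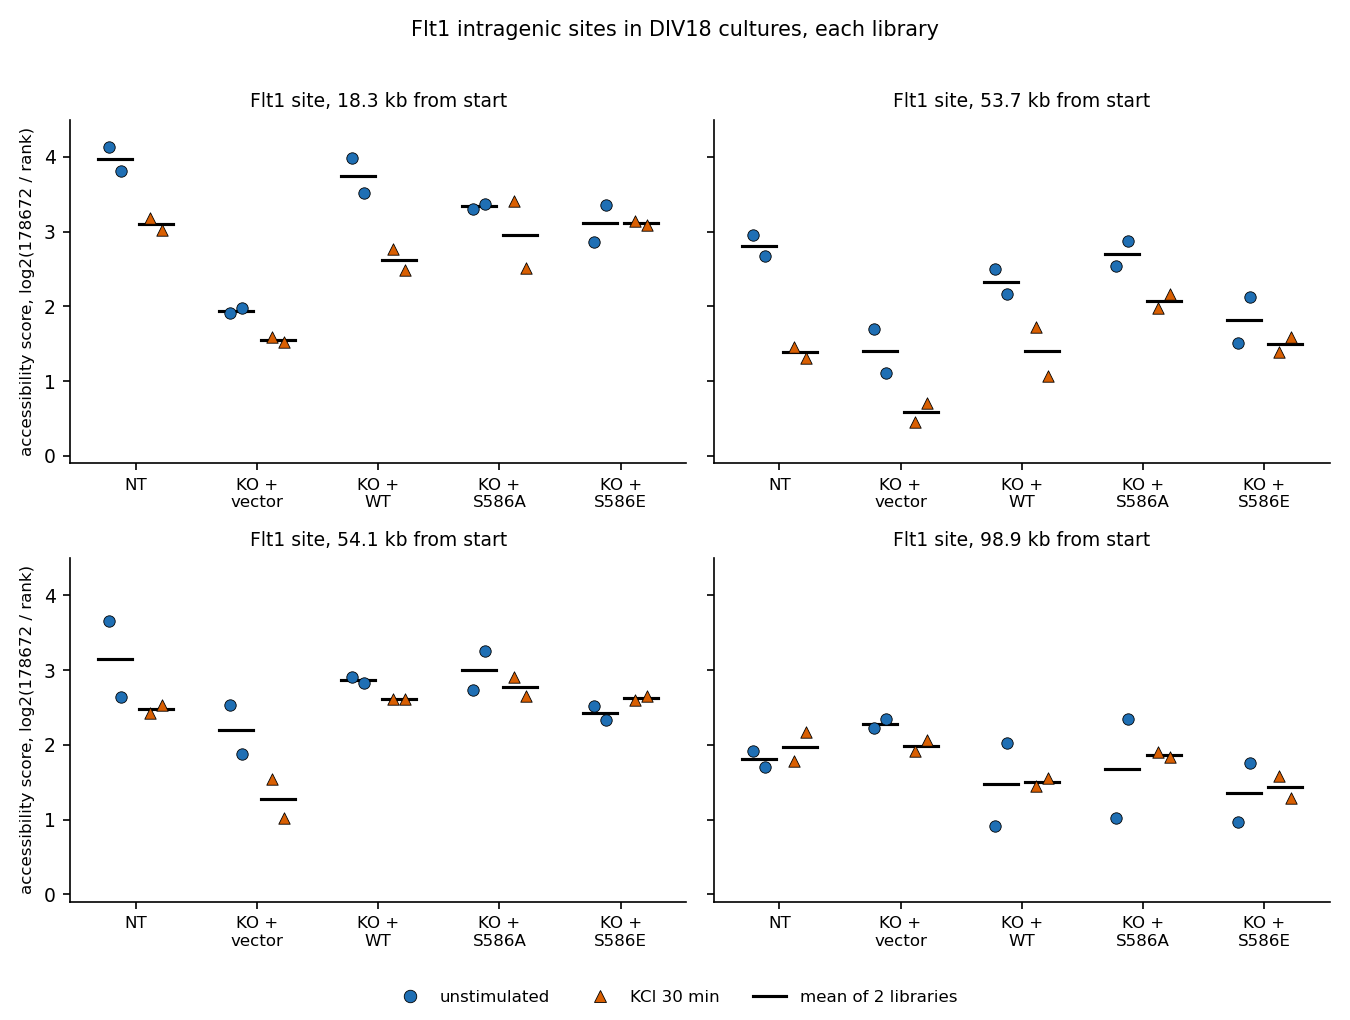
Scores of 4 Flt1 sites in the 20 DIV18 libraries, by genotype; the vertical axis is log2(178672/rank), blue circles are unstimulated libraries, orange triangles are libraries after 30 min of KCl, and bars are means of 2 libraries. At 18.3, 53.7 and 54.1 kb from the start the knockout means lie lowest, and at 98.9 kb they do not.

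These 3 were the Flt1 sites called among 16 tested whose nearest gene is Flt1, and all were lower in the knockout. The other sites of Flt1 did not pass the test: at 98.9 kb from the start (chr5:147626898-147627398) the scores were 1.92, 1.70, 1.79 and 2.17 with the non-targeting guide and 2.22, 2.35, 1.92 and 2.06 in the knockout, a difference of 0.24 (limma, adjusted p = 0.681). Across all 193 sites tested around the 7 genes, 8 were called higher and 7 lower in the knockout, together 15. Of all sites, 2.56% were called higher and 4.11% lower. By library values, 6 of the 193 lay higher and 3 lower in the knockout without overlap, against 2.76% and 3.8% of all sites. The median change of the 193 was 0.030, beside 0.001 over all sites. With the add-back 5 were called higher and 3 lower than the knockout, against 2.54% and 2.36% of all sites, and 7 lay higher and 3 lower without overlap, against 3.34% and 2.7%.

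Of the 15 called sites, 7 had another gene as nearest, and 4 of these had an adjusted p under 0.01; they were named after their values were seen. In the Col1a1 locus, a site nearest to Ppp1r9b (chr11:94989373-94989873) scored 1.68, 1.70, 1.85 and 2.07 with the non-targeting guide and 3.14, 2.94, 2.37 and 2.44 in the knockout, a rise of 0.90 ± 0.15 (SE) without overlap (limma, adjusted p = 0.00437). In the Pecam1 locus, a site nearest to Tex2 (chr11:106613172-106613672) scored 1.36, 1.61, 2.25 and 2.35 with the non-targeting guide, 2.74, 2.77, 2.61 and 2.73 in the knockout, and 1.69, 1.82, 2.36 and 2.15 with the add-back. The knockout lay above both, with a rise of 0.82 ± 0.16 (SE; limma, adjusted p = 0.00832) and a fall of 0.71 ± 0.16 (SE; limma, adjusted p = 0.0215) with the add-back. A site nearest to Pan3 in the Flt1 locus (chr5:147539374-147539874) was at 0 in all 4 knockout libraries and at 1.29, 1.61, 0.24 and 0.13 with the non-targeting guide (limma, adjusted p = 0.00468), and one nearest to Slc6a7 in the Pdgfrb locus (chr18:61007975-61008475) fell by 1.03 ± 0.19 (SE; limma, adjusted p = 0.00675). These 4 kept the knockout call in 8 of 8 repeats without 1 library, but none in every other setting: the Ppp1r9b and Tex2 sites lost it by intervals and with a 500 bp radius (0.41 and 0.32 there), and the Pan3 and Slc6a7 sites with list length as a covariate (-0.61 and -0.73), Pan3 also with the top 75000 summits. The Tex2 add-back fall was lost too without knockout KCl replicate 2, add-back KCl replicate 2 or add-back unstimulated replicate 1 (limma, adjusted p up to 0.0672). Over other settings this add-back change was -0.747 to -0.165 (limma, adjusted p up to 0.67).

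Among sites nearest to the other named genes the knockout calls had adjusted p-values above 0.02. A site inside Col1a1 (chr11:94937292-94937792, 1.32 kb from the lower end) scored 1.29, 1.24, 1.42 and 1.72 with the non-targeting guide, 0.76, 0.31, 0.76 and 0.90 in the knockout, and 1.03, 0.97, 1.57 and 1.47 with the add-back. The knockout range lay below both others, the fall was 0.73 ± 0.17 (SE; limma, adjusted p = 0.0224), and the difference of 0.58 with the add-back was not called (limma, adjusted p = 0.0701). The nearby start site of Col1a1 was 0.60 ± 0.16 (SE) higher with the add-back than in the knockout (limma, adjusted p = 0.0461), while its difference of -0.35 between knockout and non-targeting guide was not called (limma, adjusted p = 0.228). Without single libraries the fall at 1.32 kb was -0.84 to -0.62 and was lost without knockout KCl replicate 1, knockout unstimulated replicate 2, non-targeting KCl replicate 2 or non-targeting unstimulated replicate 1 (limma, adjusted p up to 0.0871), and over other settings it was -0.91 to -0.15. The start site difference was 0.52 to 0.69 and kept its call only without knockout KCl replicate 2 or knockout unstimulated replicate 1. Beyond the upper end of Pecam1 (chr11:106727174-106727674, 12.1 kb away) the knockout scored 0, 0, 0.69 and 0.48 and the non-targeting guide 0.83, 0.10, 1.93 and 1.75, a fall of 0.86 ± 0.21 (SE; limma, adjusted p = 0.0288).

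Inside Pdgfrb, 2 neighbouring sites moved the other way. At the first (chr18:61065842-61066342, -19.0 kb from the upper end, where minus means inside the gene) the scores were 0, 0.48, 0.72 and 0.18 with the non-targeting guide, 1.74, 0.96, 1.54 and 1.29 in the knockout, and 0.14, 0.82, 0.89 and 0.71 with the add-back. It rose by 1.04 ± 0.27 (SE) in the knockout (limma, adjusted p = 0.0351), and the difference of -0.74 with the add-back was not called (limma, adjusted p = 0.138). At the second (chr18:61065441-61065941, -19.4 kb from the upper end) the scores were 1.14, 1.87, 2.83 and 2.17 with the non-targeting guide and 3.32, 2.59, 2.77 and 3.35 in the knockout, which overlap, and limma gave an adjusted p of 0.0471. The 12.1 kb Pecam1 site and these 2 were named after their values were seen. In the Cldn5 locus the site nearest to Ufd1 (chr16:18812460-18812960, 35.9 kb from the start) rose by 0.66 ± 0.17 (SE; limma, adjusted p = 0.0355), with 0.03 to 0.85 over other settings. The calls of these 2 Pdgfrb sites, the 12.1 kb Pecam1 site and this one were each lost in 6 of 8 repeats without 1 library. All 4 were lost without non-targeting KCl replicate 1 or 2, non-targeting unstimulated replicate 1, knockout KCl replicate 2 or knockout unstimulated replicate 1. The sixth loss was without knockout unstimulated replicate 2 for Pecam1 and without knockout KCl replicate 1 for the others. Over the repeats the change was -1.04 to -0.67 at Pecam1 (limma, adjusted p up to 0.0959), 0.84 to 1.23 and 0.82 to 1.19 at the Pdgfrb sites (limma, adjusted p up to 0.125 and 0.165) and 0.56 to 0.76 near Ufd1 (limma, adjusted p up to 0.13). Over other settings it ran from -1.05 to -0.29 at Pecam1 (limma, adjusted p up to 0.0653). At the Pdgfrb sites it then ran from 0.20 to 1.08 and from 0.98 to 1.23 (limma, adjusted p up to 0.291 and 0.0965). The start sites of Kdr, with a difference of -0.02 (limma, adjusted p = 1), and of Foxc1, with a difference of -0.19 (limma, adjusted p = 0.748), were not called, nor was any of the 8 tested sites nearest to Foxc1. At start sites of the marker lists none of 11 endothelial, 9 mural and 2 fibroblast or meningeal genes was called; the summed endothelial score was 8.41 to 10.7 in the knockout and 6.54 to 11.4 with the non-targeting guide, and the part of cell content in these results was not tested.

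Replacing this serine in the add-back made no called difference at any of the 193 sites. At the 18.3 kb Flt1 site the mean score was 3.15 ± 0.43 (SD, n = 4) with S586A and 3.11 ± 0.21 (SD, n = 4) with S586E, so the differences from the wild-type add-back were -0.04 ± 0.20 (SE) and -0.07 ± 0.20 (SE). At the 53.7 kb Flt1 site S586A was 0.52 higher (limma, adjusted p = 0.838). By limma none of the 193 was called for S586A or S586E, beside 0.0479% and 0.117% of all sites. An unadjusted limma p under 0.05 was seen at 12 and 11 of the 193, beside 14848 and 18165 of all 277507 sites. In the Arid2 experiment none of 130 sites was called by limma, beside 0.014% of all sites. An unadjusted limma p under 0.05 was seen at 8 of the 130, beside 10882 of all 228971 sites. The Arid2 knockout was 0.72 ± 0.26 (SE) higher at a site inside Pecam1 (chr11:106657955-106658455, 3.99 kb from the lower end), where the groups did not overlap but the difference was not called (limma, adjusted p = 0.907). At the 98.9 kb Flt1 site its difference was -0.37, not called.

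The start of Kdr rose in rank with depolarization. At DIV18 the Kdr start site scored 0 to 0.24, with a median of 0, in the 10 unstimulated libraries, and 0.55 to 1.25, with a median of 1.07, in the 10 libraries after KCl, across all 5 genotypes. The groups did not overlap, and the score rose by 0.93 ± 0.13 (SE; limma, adjusted p = 0.000105). In the DMSO cultures at DIV7 it scored 2.22 and 2.25 without and 3.01 and 2.74 with 30 min of KCl, a rise of 0.64 ± 0.15 (SE; limma, adjusted p = 0.012), and after 10 min it scored 1.86 and 1.64 without and 2.55 and 2.30 with KCl. In the Arid2 experiment the non-targeting libraries scored 0.59 and 0.75 without and 0.83 and 1.55 with KCl. Without replicate 1 of the KCl or of the unstimulated 30 min DMSO libraries the DIV7 rise was not called (0.50 to 0.77 over 4 repeats, limma, adjusted p up to 0.0989), while at DIV18 it was called in 20 of 20 repeats. The site just before the start (chr5:75978268-75978768), whose centre lies in the printed Kdr promoter, held no ranked summit in the 10 unstimulated DIV18 libraries and held one in 6 of the 10 KCl libraries. Sites within 1 kb of a listed gene start moved up as a class. Their median change over the genome was 0.162 at DIV18 and 0.111 at DIV7, beside -0.042 and 0.000 at all other sites.

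The sites within 1 kb of the Cldn5 start and of the lower end of Col1a1 also rose, each in 1 experiment. The Cldn5 start site scored 0.41 and 0.63 without and 1.36 and 1.34 with 30 min of KCl in DMSO at DIV7, a rise of 0.83 ± 0.18 (SE; limma, adjusted p = 0.00938). At 10 min the same site scored 1.31 and 1.37 without and 1.57 and 1.23 with KCl, which overlap. The 30 min call was lost without replicate 1 of either state (0.72 to 0.94 over 4 repeats, limma, adjusted p up to 0.0601) and, among the settings, with the top 75000 summits (limma, adjusted p = 0.401). The Col1a1 start site scored 1.61 to 2.92 in the unstimulated and 2.49 to 3.18 in the KCl libraries at DIV18, which overlap, with a rise of 0.64 ± 0.10 (SE; limma, adjusted p = 0.000331). Of the 6 start sites, 2 were called higher and none lower in each experiment. Of all sites within 1 kb of a listed gene start, 32.2% were called higher at DIV18 and 17.9% at DIV7. These shares count every such site, weak ones included, not the strongest 1 per gene, so the comparison is rough.

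Sites inside Pecam1 and Flt1 fell with KCl. The Pecam1 site 15.8 kb from the lower end (chr11:106669764-106670264) scored 1.80 to 3.31, with a median of 2.60, in unstimulated DIV18 libraries and 0.96 to 1.92, with a median of 1.46, after KCl. It fell by 1.24 ± 0.17 (SE; limma, adjusted p = 9.36e-05). The 20.6 kb site fell by 0.58 ± 0.17 (SE) at DIV18 (limma, adjusted p = 0.0181) and by 0.96 ± 0.13 (SE) in DMSO at DIV7 (limma, adjusted p = 0.000781), where it scored 3.32 and 2.92 without and 2.11 and 2.21 with KCl. The site 24.0 kb from the lower end (chr11:106678010-106678510) fell in both experiments too, by 0.70 ± 0.14 (SE; limma, adjusted p = 0.00206) at DIV18, while in DMSO at DIV7 it scored 2.20 and 1.60 without and 0.87 and 0.86 with KCl (limma, adjusted p = 0.00304). These 3 sites are neighbours in 1 gene and are not independent. Ranked by intervals, the DIV18 change at 20.6 kb was -0.34 and not called (limma, adjusted p = 0.138).

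At Flt1, 2 of the 3 sites that fell in the knockout also fell with KCl. The 53.7 kb site fell by 0.83 ± 0.13 (SE; limma, adjusted p = 0.000351) and the 18.3 kb site by 0.55 ± 0.12 (SE; limma, adjusted p = 0.00377), while the 54.1 kb site differed by -0.37 and was not called (limma, adjusted p = 0.058). Ranked by intervals, the change at 53.7 kb was -0.20 and not called (limma, adjusted p = 0.333). In DMSO at DIV7 the 18.3 kb site held no ranked summit in any library. Inside Pdgfrb (chr18:61068343-61068843, -16.5 kb from the upper end) KCl lowered the DIV7 score by 0.83 ± 0.14 (SE; limma, adjusted p = 0.00298). The largest member change with KCl lay in the Col1a1 locus but nearest to Ppp1r9b (chr11:94988818-94989318), where the DIV18 scores were 1.86 to 4.06 unstimulated and 0.90 to 1.70 after KCl, without overlap (limma, adjusted p = 2.75e-07); ranked by intervals the change was -0.58 and not called (limma, adjusted p = 0.217). Around the 7 genes 24 sites were called higher and 36 lower of 193 at DIV18, against 15.4% and 16.6% of all sites. There 1 lay higher, the Kdr start, and 5 lower without overlap, against 1.94% and 1.14%. At DIV7, 12 were called higher and 24 lower of 151, against 9.38% and 11.3%.

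**Figure D3:**
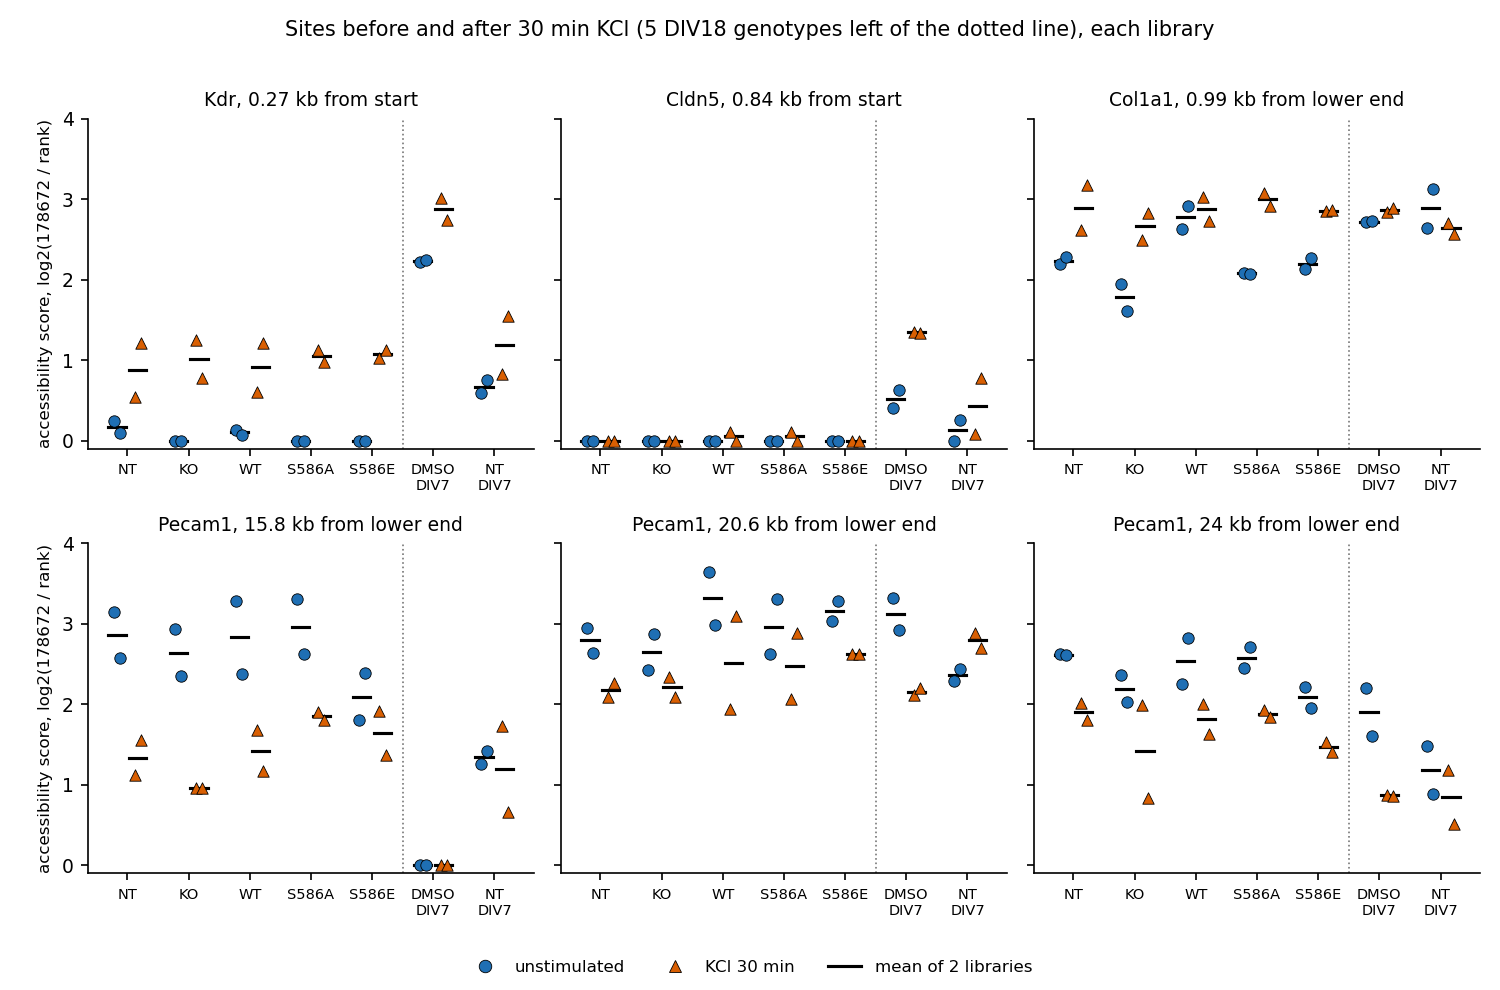
Scores of 6 member sites without KCl (blue circles) and after 30 min of KCl (orange triangles); the vertical axis is log2(178672/rank), bars are means of 2 libraries, the 5 DIV18 genotypes stand left of the dotted line, and the DIV7 DMSO and non-targeting cultures right of it. The Kdr start panel shows every KCl library of the DIV18 genotypes above every unstimulated one, and the Pecam1 panels show lower scores after KCl.

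A wider list of 20 genes that act in vessel growth was read at the start sites of the 17 that had one. At DIV18, KCl raised 7 and lowered 1 of 15 tested, beside 32.2% higher and 8.39% lower among all sites at gene starts. Nrp2, a co-receptor for VEGF and semaphorins, rose by 1.13 (limma, adjusted p = 4.87e-06), Vegfa, the main VEGF ligand, by 0.82 (limma, adjusted p = 8.23e-05), and Dll4, a Notch ligand of endothelial tips, by 0.74 (limma, adjusted p = 5.68e-05). Pdgfb, the ligand of the Pdgfrb receptor, fell by 0.56 (limma, adjusted p = 0.000432); it was named after its value was seen, as the single gene that fell. In DMSO at DIV7, 3 rose and 3 fell of 16, beside 17.9% and 5.77% of all sites at gene starts. Nrp2 rose by 0.66 and Dll4 by 0.99, and the difference of 0.17 at Vegfa was not called by limma. None of the 15 tested was called in the Smarcc2 knockout by limma. Of the endothelial list, 3 of 11 were called higher with KCl at DIV18, beside 32.2% of all sites at gene starts. Among them Ocln, a tight junction gene, rose by 0.98. In DMSO at DIV7, 5 of 8 were called higher, beside 17.9% of all sites at gene starts, which are not limited to 1 per gene. There Ocln rose by 0.95 and Erg, an ETS factor of endothelial cells, by 0.86. These counts include the Kdr start site given above, and at DIV7 also that of Cldn5.

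FHT1015 is described without tests, because these genes were picked with its results known. It shares the DMSO libraries with the DIV7 KCl comparison. The largest differences were in Pecam1, Col1a1 and Flt1. The 3.99 kb site inside Pecam1 scored 2.23 to 3.43, with a median of 2.83, in the 8 DMSO libraries and 0 to 2.34, with a median of 1.40, in the 8 FHT1015 libraries, a mean difference of -1.60. Those ranges overlap through the 10 min KCl libraries, at 2.24 and 2.43 in DMSO and 2.13 and 2.34 in FHT1015. At 30 min without KCl the same site scored 3.43 and 3.19 in DMSO against 0 and 0.47 in FHT1015.

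The 98.9 kb Flt1 site scored 2.70 to 3.22, with a median of 2.84, in DMSO and 0.50 to 2.61, with a median of 1.59, in FHT1015, and the groups did not overlap. A site past the upper end of Col1a1 (chr11:94955095-94955595, 2.30 kb away) scored 1.80 to 2.27 in DMSO. With FHT1015 it scored 1.05, 1.38, 0.85 and 0.96 at 10 min (unstimulated, then KCl) and 0.30, 0.01, 0 and 0 at 30 min, all below DMSO. A site beyond Pecam1 (chr11:106737192-106737692, 22.2 kb past the upper end and nearest to Milr1) scored 2.43 to 3.02 in DMSO and 0.61 to 1.83 in FHT1015, again without overlap. The 20.6 kb and 24.0 kb Pecam1 sites, which KCl also lowered, differed by -1.18 and -1.01.

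Other sites of the same genes were higher with FHT1015. A site at the lower end of Col1a1 (chr11:94936700-94937200, 0.73 kb inside) held a ranked summit in 2 of 8 DMSO libraries, at 0.98 and 1.10, and in 7 of 8 FHT1015 libraries, at 1.24 to 2.13, a mean difference of 1.28 that was 0.45 with a 500 bp site radius or the top 75000 summits, 0.46 by intervals and 2.02 with list length as a covariate. The neighbouring Col1a1 start site was higher by 0.45. The -16.5 kb site inside Pdgfrb had a median of 2.08 in FHT1015 and 1.56 in DMSO, a mean difference of 0.60. Of the 16 sites nearest to Foxc1, 12 were above 0 and 4 below, with a median difference of 0.295. Its -5.28 kb site had a median of 3.31 in FHT1015 and 3.18 in DMSO, and its start site a mean difference of -0.24. Of the 151 sites measured around the 7 genes, 84 differences were above 0 and 67 below, with a median of 0.036 beside 0.008 over all sites. Without overlap, 4 lay higher and 8 lower, against 2.04% and 3.96% of all sites, and nothing is read from these shares. By nearest gene, 9 of 16 Pecam1 and 9 of 18 Flt1 sites were below 0.

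The Kdr start site, which rose with KCl, was lower with FHT1015 at both times. In DMSO it scored 1.64 to 3.01, with a median of 2.28, and in FHT1015 1.02 to 1.76, with a median of 1.30. Within each time and state the groups did not overlap, with mean differences of -0.59 and -0.75 at 10 min (unstimulated and KCl) and -0.96 and -1.60 at 30 min. The Cldn5 start site differed by -0.37 in the mean. Its scores after 30 min of KCl were 0.63 and 0.66 with FHT1015, beside 1.36 and 1.34 in DMSO. The summed endothelial start score was 14.4 to 16.1 in FHT1015 and 15.3 to 20.2 in DMSO. That sum includes the start sites of Kdr, Flt1 and Cldn5, so it is not a separate reading of endothelial cells. The part of cell content in these differences was not tested. FHT1015 lists held 238225 to 372263 summits and DMSO lists 347076 to 397885; with list length as a covariate the 98.9 kb Flt1 difference was -0.97 in place of -1.42 and the 3.99 kb Pecam1 difference was -1.12 in place of -1.60.

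**Figure D4:**
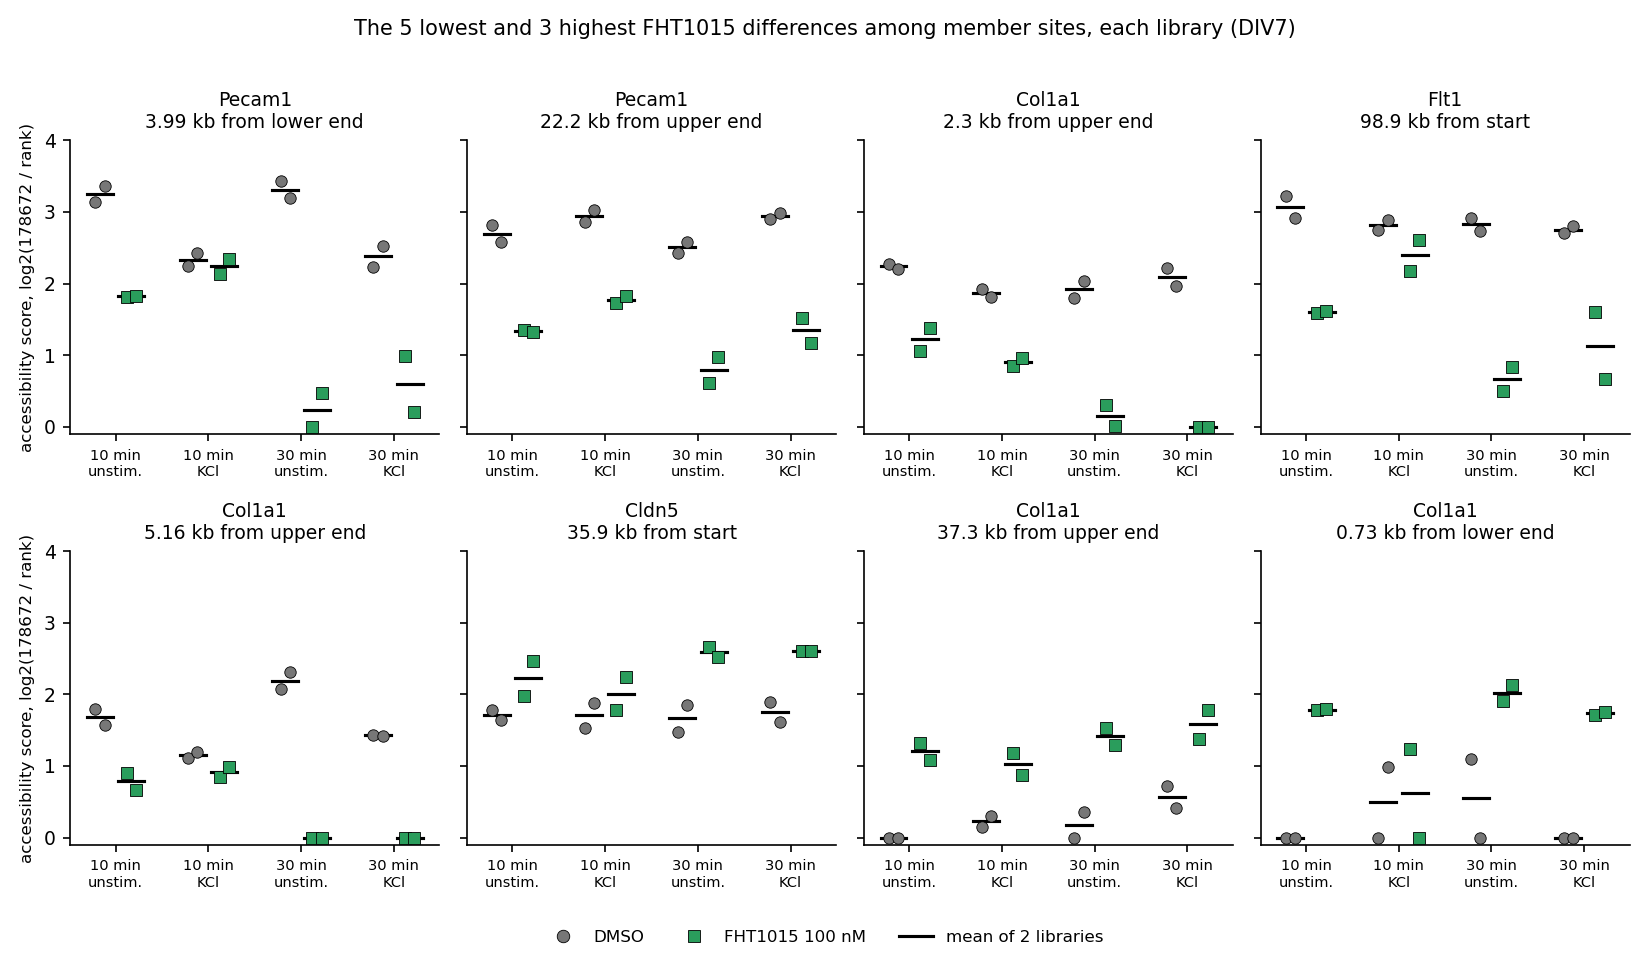
Scores of the 5 member sites that differed most downward and the 3 that differed most upward with FHT1015, in DMSO (grey circles) and 100 nM FHT1015 (green squares), for 10 and 30 min, unstimulated or in KCl; the vertical axis is log2(178672/rank) and each point is 1 library. In the panel 3.99 kb inside Pecam1 the gap is widest at 30 min without KCl, and in the 98.9 kb Flt1 panel no FHT1015 point reaches the DMSO points.

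The drug and the knockout are set side by side at the 53 sites nearest to a named gene and tested in both experiments. The 98.9 kb Flt1 site, with -1.42 under FHT1015, differed by 0.24 in the knockout, and the 3.99 kb and 20.6 kb Pecam1 sites, with -1.60 and -1.18, differed by 0.04 and -0.05. The Flt1 sites that fell in the knockout could show little of the drug at DIV7. The 18.3 kb site held no ranked summit in the 16 drug libraries. The 54.1 kb site scored 0 to 1.31 in DMSO; without KCl its mean was 0.23 in FHT1015 against 1.30 in DMSO at 10 min and 0 against 0.60 at 30 min, lower without overlap at both times. The 53.7 kb site was also lower without overlap at 10 min, with differences of -0.64 unstimulated and -0.42 in KCl. The 1.32 kb Col1a1 site, which fell in the knockout, differed by -0.03 with the drug.

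By sign, 15 of the 53 were below 0 in both, 19 above 0 in both, 12 lower with FHT1015 and higher in the knockout, and 4 the reverse; the others had a difference of 0 in 1 or both. More than 0.5 lower were 9 sites with FHT1015 and 6 in the knockout, and none in both, a limit chosen after the values were seen. Nothing is read from that empty overlap. At several of the 6, such as the 53.7 kb and 54.1 kb Flt1 and 12.1 kb Pecam1 sites, the DMSO means were 0.41, 0.48 and 0.05. These left no room for such a fall in the mean over all times and states, though single states fell by more at both Flt1 sites. The 89.8 kb Flt1 and 1.32 kb Col1a1 sites, with means of 2.58 and 2.11 over the drug experiment, did have room. The 24.0 kb Pecam1 site, at -1.01 with FHT1015 and -0.46 in the knockout, and the 89.8 kb Flt1 site, at -0.46 and -0.68, lay near the limit. Across the 53 sites Pearson's r was 0.253 and Spearman's rho 0.431, as a description, since sites of a locus share its libraries and are not independent. The drug was given for minutes at DIV7 and the knockout was read at DIV18, so agent, duration and age cannot be told apart.

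**Figure D5:**
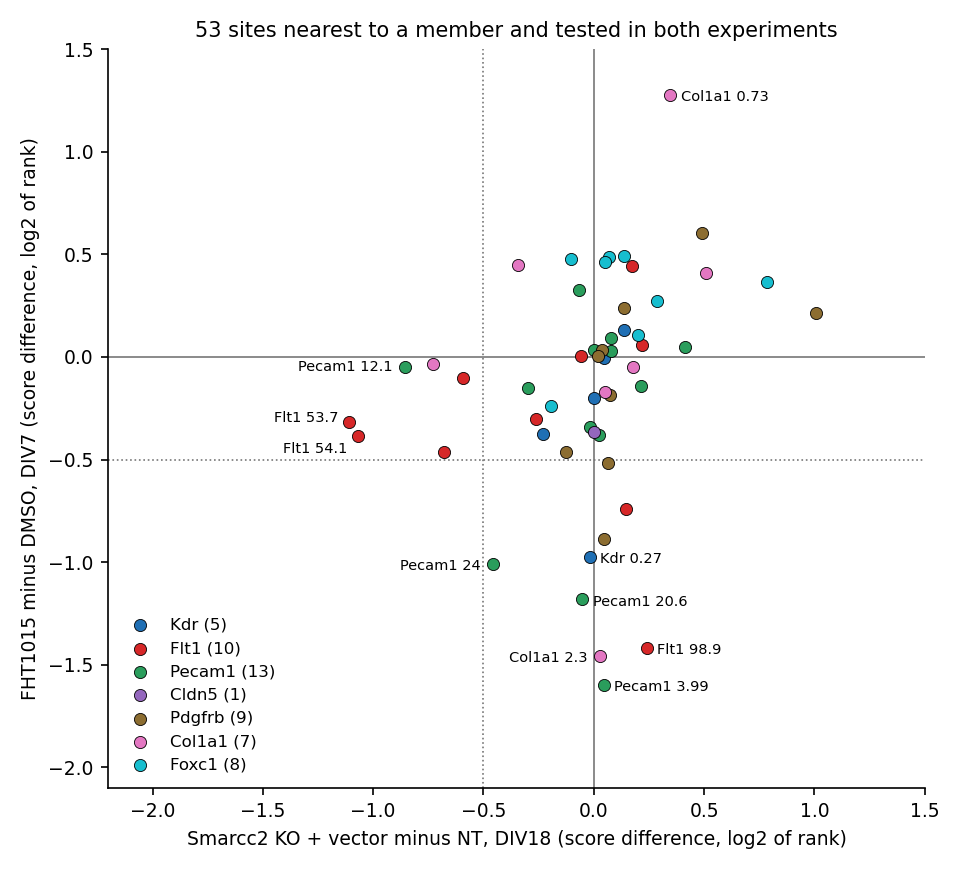
Difference in score between FHT1015 and DMSO at DIV7 (vertical axis, log2 rank units) against the difference between Smarcc2 knockout and non-targeting guide at DIV18 (horizontal axis, same units) for 53 sites, coloured by gene. Dotted lines stand at -0.5 on each axis, and the lower left corner they bound holds no site.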

How the data were processed

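ATAC-seq peak lists of 44 libraries in 22 groups were used. The build was mm10, per the submitters' processing notes, which name MACS2 and Bowtie2 beside FastQC, Picard, Trim Galore, bedtools and SAMtools; versions and settings are not given in the sources used here. The authors' deposited lists, 1 per library, give for each summit a fold enrichment (a ratio to the local background) and a −log10 p-value. The authors' score column and −log10 q-value were not used. Only the −log10 p-value and the summit position entered the scores, so differences in read depth enter through the ranks; the lists held 182229 to 397885 summits, and read totals were not used here. The background level, 0.942 to 8.39 reads per base, was read from the steps of the authors' fold enrichment.

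Summits on the 19 autosomes were ranked within each library, the first 178672 were kept, and summits within 250 bp of a shared centre formed 495811 sites. Scores, log2(178672/rank) or 0, were compared with limma 3.58.1 (R 4.3.3, trend), in 1 model per experiment with a mean for each group, over sites held by at least 2 of its libraries: 277507 at DIV18, 257926 in the drug and 228971 in the Arid2 experiment. P-values were Benjamini-Hochberg adjusted over all sites tested, and a site was called at an adjusted p under 0.05. Python 3.11.15, pandas 2.3.3 and numpy 2.4.6 made the tables. The models were tested on simulated data; false calls gathered at low mean scores, so calls at low sites, such as the Kdr site just before the start at DIV18, are less certain. Named sites were each gene's start site (within 1 kb of an annotated end), its distal site with the highest mean score, up to 3 called sites by size of change in each tested comparison, and the 5 lowest and 3 highest FHT1015 differences; list genes were up to 3 called start sites by adjusted p; exceptions are given beside their values. Genes, lists and sites were chosen with earlier results of these data known. Exons were not annotated in the tables used.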

Additional observations from a re-analysis of the deposited data

How the results depend on the processing

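Of the 15 member sites called in the Smarcc2 knockout, counts were 8 with list length as a covariate, with a site radius of 500 bp, with the top 75000 summits and with only sites nearest to the gene. They were 8 to 24 without 1 library: 9 without replicate 1 and 8 without replicate 2 of the non-targeting KCl libraries, and 24 without replicate 2 of the unstimulated ones. The 8 calls of the add-back became 4 with list length, with the 500 bp radius, with the top 75000 summits and with sites held by at least 4 libraries, and 4 to 11 without 1 library (4 and 5 without replicate 1 and 2 of the add-back KCl libraries, and 4 and 5 without those of the unstimulated ones). S586A gave 0 to 1 calls and S586E 0 to 2 without 1 library; those from 0 arose without replicate 1 of the unstimulated or KCl add-back libraries for S586A, and for S586E without those, replicate 2 of the KCl add-back, either unstimulated S586E library or replicate 1 of the S586E KCl libraries. The Arid2 count was 0 by limma in every setting. The KCl counts were 60 at DIV18 (28 with the top 75000, 22 nearest the gene, 50 to 67 without 1 library) and 36 at DIV7 (19, 23, and 19 to 33, the lowest 2 being 19 and 20 without replicate 1 and 2 of the DMSO 30 min KCl libraries). Same-numbered libraries shared only a number (r of their deviations 0.012 to 0.142 at DIV18, -0.075 to 0.067 in the drug and -0.004 to 0.014 in the Arid2 experiment). With a replicate block the counts were 16 for the knockout, 9 for the add-back, 66 for KCl at DIV18 and 36 at DIV7. The median FHT1015 difference of member sites, 0.036, was 0.008 with at least 4 libraries, -0.037 by intervals, 0.000 with list length, -0.042 with the 500 bp radius, 0.052 with the top 75000, -0.020 nearest the gene, and 0.026 to 0.041 without 1 library. Directions turned with KCl at DIV7 at the Pecam1-locus site nearest to Tex2 (0.803), to -0.511 by intervals and -0.705 with the 500 bp radius, and at the Col1a1-locus site nearest to Ppp1r9b, to 0.565 by intervals (limma, adjusted p = 0.0975). The 18.3 kb Flt1 calls held in the 7 other settings and the 8 repeats without 1 library, at -1.87 to -1.44 in the knockout and 1.15 to 1.56 with the add-back. Ranking by fold enrichment, 1 of these settings, gave the same counts over all sites as the main ranking, so it is not a separate check. The cause of the changes was not tested.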

Other observations

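The mean score over all sites of a locus, with each experiment's mean subtracted, was compared between loci across the 44 libraries. Values are given as a description, since these libraries share their cultures and depth. For Flt1 the most alike loci were Ces2a (r = 0.884), Dbh (0.881) and Cdh13 (0.879), and for Kdr Slfnl1 (0.734), Myof (0.695) and Mthfd1 (0.685). For Pecam1 they were Angpt4 (0.693), Smco4 (0.681) and Hmcn1 (0.669), and for Foxc1 Med18 (0.799), Sp7 (0.798) and Suox (0.762). For Cldn5 they were Zfand4 (0.605), Flt4 (0.567) and D6Ertd527e (0.549), for Col1a1 S100a14 (0.887), S100a16 (0.881) and Atp1a4 (0.878), and for Pdgfrb Ubxn10 (0.768), Pla2g2c (0.765) and 4930524B15Rik (0.742). Between the 7 genes themselves r ran from -0.623 for Flt1 and Foxc1 to 0.369 for Flt1 and Col1a1.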
